A study of Mus musculus with 23 samples.

Results

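Collagens are the proteins that build the scaffold of tissues, each a triple helix of 3 chains encoded by genes named for the collagen type and the chain. The genes described here are the 43 rows of the count tables, of 41073 genes in all, whose symbol is Col, a type number, a and a chain number and nothing more. Col17a1, the hemidesmosome collagen of epithelial cells, matches that pattern and was left out by the rule. The rule itself uses symbols and no measured value.

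The series followed mouse lung cells in culture, and bulk RNA-seq was made from 23 libraries in 3 experiments labelled A, B and C. EpCAM-positive cells of C57BL/6 wild type mice (C57BL/6J in the design text) were sequenced on the day of isolation (3 libraries, 1 per experiment) or were grown on transwells. Cultured cells were collected untreated at airlift, the day on which medium is removed from the upper side to make an air-liquid interface (6 libraries, 2 per experiment). The remaining wells were collected on day 4 of culture, as labelled, either left untreated (day 4 control, 7 libraries) or treated with NTHi (7 libraries). NTHi is the usual abbreviation of non-typeable Haemophilus influenzae, a bacterium of the airways. The labels state neither its form and dose nor the age and sex of the mice. All groups share the wild type genotype, and isolation, airlift and day 4 control are all untreated. The labels call the cells airway epithelial, and whether replicates of an experiment were separate cultures or animals is not stated, so p-values measure the spread between these libraries, which may be partly technical.

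Total counts per library were 32323375 to 39081663, and the 43 genes together took 0.0700% to 0.296% of them. Each of the 9 epithelial markers examined was detected at a mean of 1 CPM or more in every group. Mean Epcam was 237 CPM at isolation and 334, 422 and 532 CPM at airlift, in day 4 control and with NTHi. The median sum of all 9 did not rise steadily as Epcam did, at 9558, 9894, 8033 and 8921 CPM in the same order. Sums of 9 macrophage and monocyte markers were 18228 to 24641 CPM at isolation. Here 2 libraries stood apart: day 4 control C1 and day 4 NTHi C3 had median correlations with their own group of 0.982 and 0.977, against at least 0.988 for the other 21. Leaving both out kept all 19 calls of the NTHi comparison among the 35 collagen genes tested.

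Collagens fall into structural classes. Fibrillar chains (types I, II, III, V, XI, XXIV and XXVII) make the banded fibres of the connective tissue under an epithelium and are usually made by mesenchymal cells. Type IV chains make the sheet-like network of basement membranes, on which epithelia rest. In lung, that network is shared between a broad form built from the Col4a1 and Col4a2 chains, a form of Col4a3, Col4a4 and Col4a5 that is known from alveolar and kidney basement membranes, and a form of Col4a5 and Col4a6. The other classes are bound to fibrils (the FACIT collagens), form beaded filaments (type VI) or short chain networks (types VIII and X), sit at the basement membrane zone (types VII, XV and XVIII) or cross the cell membrane.

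Promoters of 34 of the 43 genes were found in the RefSeq promoter table (build GRCm38.p6). Those of 4 fibrillar genes with large changes are shown: Col24a1 and Col5a3, which were higher with NTHi, and Col1a2 and Col3a1, which were higher after 4 days of culture. Each run is the 250 bases before the annotated start, read 5′ to 3′ on the gene's strand. The Col5a3 run has 200 bases because the annotation places another start inside the last part of the window. In all, 4 motifs were searched on both strands. They were the NF-kB consensus, the CCAAT box in its core letters, a TATA box spelled TATAAA, and a GC box spelled GGGCGG. Capitals mark every match, and no matches overlapped.
Col24a1, chr3:145292222-145292471, plus strand: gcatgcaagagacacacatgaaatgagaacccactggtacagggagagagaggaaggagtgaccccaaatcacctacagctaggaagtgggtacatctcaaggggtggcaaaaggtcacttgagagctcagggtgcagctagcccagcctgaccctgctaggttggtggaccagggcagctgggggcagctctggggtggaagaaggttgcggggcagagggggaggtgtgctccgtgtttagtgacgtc
Col5a3, chr9:20815118-20815317, minus strand: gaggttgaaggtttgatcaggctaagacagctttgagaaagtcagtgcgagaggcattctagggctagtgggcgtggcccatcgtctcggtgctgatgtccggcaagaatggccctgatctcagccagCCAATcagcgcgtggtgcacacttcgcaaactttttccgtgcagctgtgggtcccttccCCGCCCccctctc
Col1a2, chr6:4505368-4505617, plus strand: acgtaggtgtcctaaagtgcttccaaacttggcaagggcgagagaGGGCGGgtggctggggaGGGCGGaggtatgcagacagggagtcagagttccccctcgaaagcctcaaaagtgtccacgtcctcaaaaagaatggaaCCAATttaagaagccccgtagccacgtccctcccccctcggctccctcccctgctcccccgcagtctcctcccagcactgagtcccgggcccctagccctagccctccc
Col3a1, chr1:45311288-45311537, plus strand: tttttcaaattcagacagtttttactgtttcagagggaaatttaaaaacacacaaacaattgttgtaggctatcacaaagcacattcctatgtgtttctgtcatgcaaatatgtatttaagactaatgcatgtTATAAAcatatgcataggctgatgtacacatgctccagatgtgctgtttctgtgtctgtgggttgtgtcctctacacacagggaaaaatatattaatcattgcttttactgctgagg
The Col1a2 run held 1 CCAAT, which starts 109 bases before the gene's start, and 2 copies of GGGCGG. The Col5a3 run held 1 CCAAT and 1 GGGCGG (on the opposite strand), and the Col3a1 run 1 TATAAA. None of the 4 motifs was found in the Col24a1 run, and the NF-kB consensus was in none of the 4 runs. Over the 32851 promoters of the table, the 250-base windows held the NF-kB consensus in 7.25%, CCAAT in 33.9%, TATAAA in 12.4% and GGGCGG in 32.7%. Over the 200-base windows the shares were 5.71%, 28.4%, 9.14% and 24.6%. Several members lie beside each other in the genome: Col4a1 with Col4a2, Col4a3 with Col4a4, Col4a5 with Col4a6, Col6a1 with Col6a2, and Col3a1 with Col5a2. Col4a1 with Col4a2 and Col4a3 with Col4a4 overlap in the annotation, and strand use in counting is not stated, so reads from an overlap cannot be told apart.

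Levels are given as CPM, the count of a gene scaled to a common library total, with TMM factors that adjust the totals so that most genes keep the same level. Of the 43 genes, 34 reached a mean of 1 CPM in at least 1 group. The other 9 (Col6a4, Col6a5, Col6a6, Col9a1, Col9a2, Col13a1, Col19a1, Col25a1 and Col28a1) had group means between 0 and 0.813 CPM. Summed over the 43 genes, collagen was 1019 ± 121 CPM (SD, n = 3) at isolation, 1046 ± 127 (n = 6) at airlift, 2088 ± 316 (n = 7) in day 4 control and 1424 ± 258 (n = 7) with NTHi. The makeup changed with stage. Type IV chains were 56.1% of the summed collagen CPM at isolation, 83.1% at airlift, 72.8% in day 4 control and 64.8% with NTHi. Fibrillar chains were 2.55%, 5.58%, 15.5% and 23.1% in the same order. Type VI chains were 20.7% at isolation and 2.71%, 4.05% and 3.91% in the cultured groups. These sums are descriptions and were not tested.

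**Figure D1:**
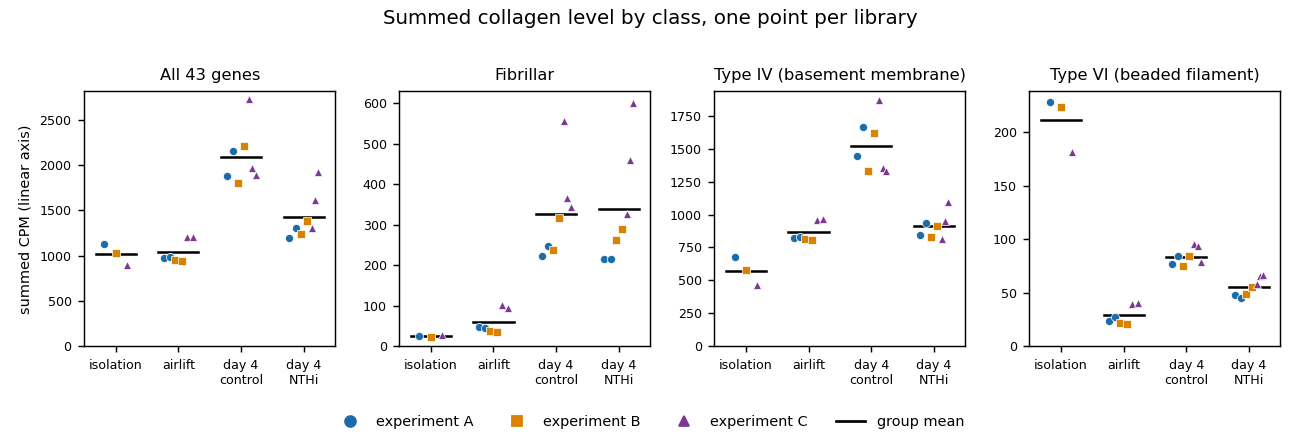
Summed CPM (vertical axes, linear, starting at 0) of all 43 collagen genes and of 3 classes, by group; each point is a library, its shape and colour the experiment, and bars are group means. Summed fibrillar level rises from a mean of 25.6 CPM at isolation to 327 in day 4 control and 339 with NTHi, whereas summed type IV level goes from 1516 in day 4 control to 913 with NTHi.

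Airlift against isolation asks how collagen transcripts differed between cells grown to airlift and cells as isolated. In this comparison, 17 of 39 tested collagen genes were higher and 13 lower by edgeR's quasi-likelihood test with Benjamini-Hochberg adjustment over all genes at 0.05. Over all 18302 genes tested, 37.9% were higher and 36.7% lower, so the members' share of calls, in either direction, was near the background. The classes divided: 8 of 11 fibrillar genes rose and 2 fell, 4 of 6 type IV genes rose and none fell, whereas 5 of 7 tested FACIT genes fell and 1 rose. The median log2 change was 1.45 for fibrillar genes (1.20 with the gene at 0 in isolation set to its bound), 0.61 for type IV and -0.66 for FACIT genes, against 0.00 over all genes tested. With library totals alone in place of TMM, the median of all genes shifted to 0.49 and the collagen calls were 19 higher and 8 lower. The calls lost were Col12a1, Col14a1, Col20a1, Col27a1 and Col6a5, each lower under TMM. Of the fibrillar genes that rose, Col24a1 rested on 14 counts over the airlift group, and its call was lost without experiment B or C, without isolation B or C, with all libraries in 1 fit and with halved counts. The Col5a3 call was lost without experiment C, without isolation C or airlift A1, C1 or C2, and with no experiment term.

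Day 4 control against airlift asks how untreated cultures changed after airlift. Here 27 of 39 tested collagen genes were higher and 5 lower, against 26.9% and 27.7% of all 18302 genes. Of the fibrillar genes 9 of 11 rose and Col11a2 fell, all 6 type IV genes rose, and so did 4 of 5 tested type VI genes and 2 of 3 genes of the basement membrane zone. Median log2 changes were 2.23 for fibrillar and 0.67 for type IV genes, against -0.02 over all genes. The 5 that fell were Col11a2, Col14a1, Col20a1, Col23a1 and Col26a1. Without experiment A, 3 fell: the calls of Col20a1 and Col26a1 were lost, and so was that of Col12a1 among the genes that rose. Among the genes that rose, Col24a1, Col25a1 and Col6a6 had at most 4, 6 and 4 counts in an airlift library. The filter on low counts kept them only through the day 4 control group, so they had to differ between groups. Their adjusted p is to be read with that limit. These calls were lost with halved counts, and those of Col24a1 and Col6a6 with a replicate block, but all were made with no filter. Day 4 control against isolation, which shares its libraries with both comparisons, gave 24 of 39 higher and 9 lower, against 38.8% and 37.7% of all genes. There the limit holds for the calls of Col24a1 and Col25a1 as well, and both were lost with halved counts.

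Day 4 NTHi against day 4 control asks what NTHi did to cultures of the same age. Of 35 tested collagen genes, 5 were higher and 14 lower, against 20.1% higher and 20.4% lower among all 16337 genes tested. The 14 that fell included Col4a1, Col4a2, Col4a3 and Col4a4, all 3 tested type VI genes (Col6a1, Col6a2 and Col6a3) and the FACIT genes Col12a1, Col14a1 and Col16a1, with Col2a1, Col3a1, Col8a2 and Col18a1. The 5 that rose were Col24a1, Col5a3, Col15a1, Col22a1 and Col27a1. The median log2 change was -0.82 for type IV genes and -0.17 for fibrillar genes, against 0.00 over all genes. Leaving out experiment A, B or C lowered the genes that rose to 3 each time, by losing Col22a1 and Col27a1. Without control A2 or B1, or NTHi C2 or C3, the count was also 3. The filter on low counts kept a gene when enough libraries had reads, so a gene kept only through the group in which it was high had to differ between groups. Among the called genes this concerns Col24a1, kept through the NTHi group, and Col14a1, kept through the control group.

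**Figure D2:**
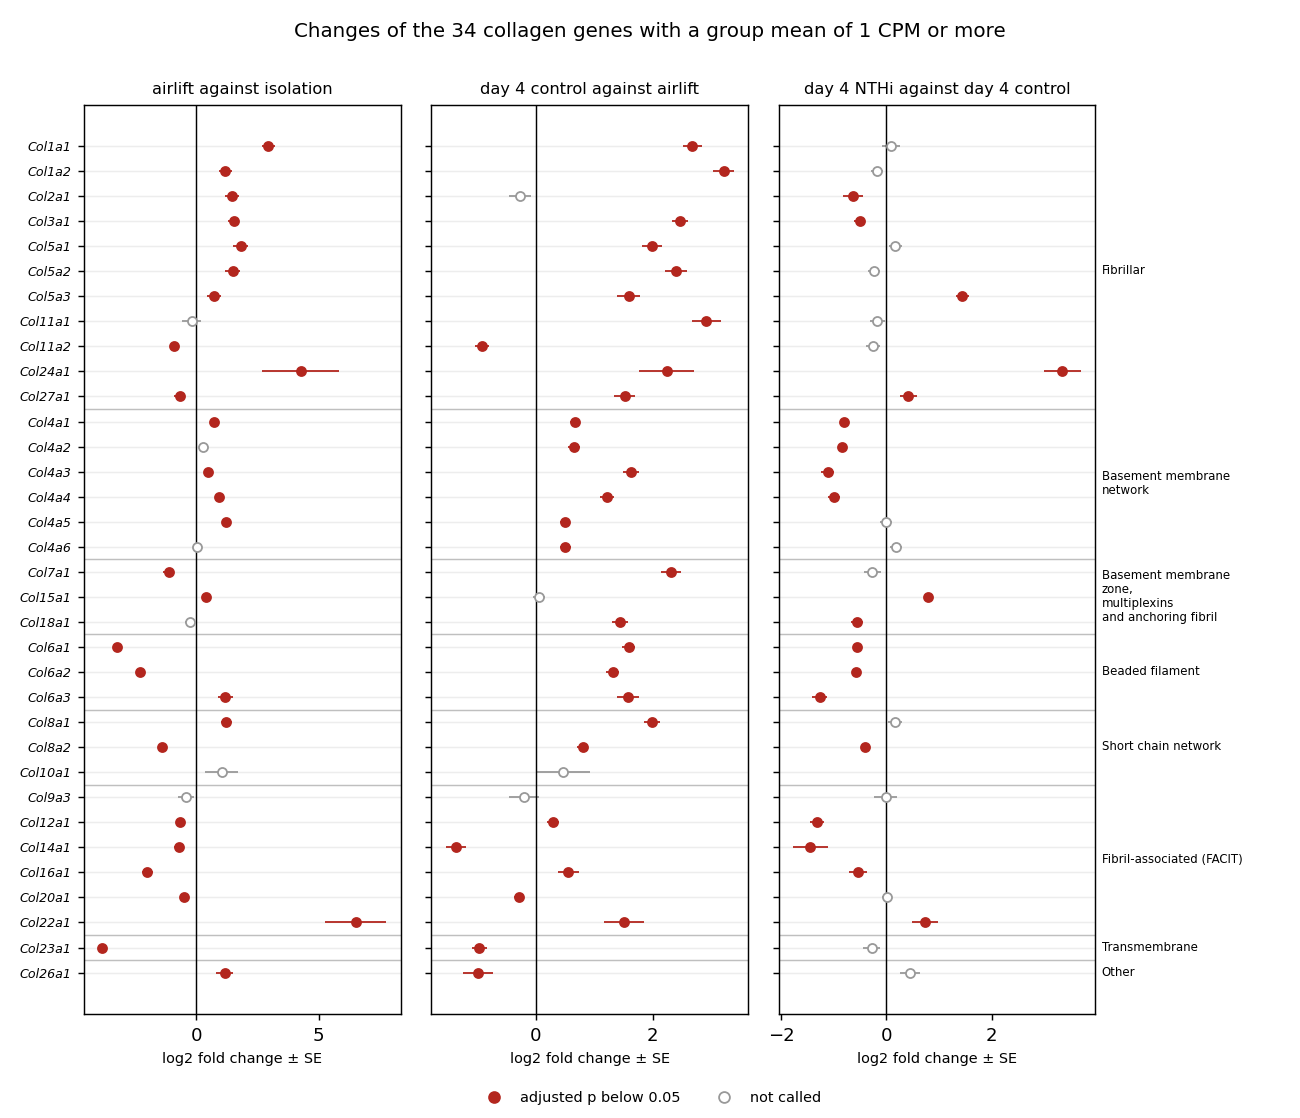
Fitted log2 fold changes with their standard errors (horizontal axes, a scale for each panel) of the 34 collagen genes that reached 1 CPM in a group, in 3 comparisons; filled points passed the adjusted p of 0.05, open points did not, and a missing point was not tested. Col24a1 and Col22a1 had no counts at isolation, so their points in the left panel depend on the prior count and are no measure of size.

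Type I collagen, the main protein of banded fibres, is built from Col1a1 and Col1a2. Col1a1 was 2.91, 2.43 and 3.74 CPM in isolation A, B and C. At airlift its lowest, median and highest values were 15.0, 19.3 and 43.1 CPM, and in day 4 control 118, 144 and 258. With NTHi they were 117, 143 and 307. The 3 stages did not overlap, and the 2 airlift libraries of experiment C were the highest of their group. Fitted log2 changes were 2.95 ± 0.27 (SE) from isolation to airlift (adjusted p = 1.45e-08) and 2.67 ± 0.16 from airlift to day 4 control (2.25e-10). With NTHi the change was 0.09 ± 0.17 (adjusted p = 0.718), and the sign turned to -0.06 without experiment C. Col1a2 was 2.27, 2.99 and 2.79 CPM in isolation A, B and C. Its lowest, median and highest values were 3.55, 4.81 and 12.7 at airlift, 31.9, 59.4 and 126 in day 4 control and 28.4, 51.2 and 114 with NTHi. Col1a2 rose by 1.20 ± 0.27 to airlift and by 3.21 ± 0.17 from airlift to day 4. Its change with NTHi was -0.17 ± 0.12 (adjusted p = 0.274). Per kilobase of transcript, the Col1a1 level was 1.03 times that of Col1a2 at isolation, 3.48 at airlift, 2.40 in day 4 control and 2.81 with NTHi.

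Col3a1, the chain of the thin type III fibres, and Col5a2, a chain of the type V collagen inside type I fibres, followed the same course over the stages. Col3a1 was 1.42, 2.02 and 2.52 CPM in isolation A, B and C. It ranged from 3.18 (median 4.40) to 10.96 at airlift, from 17.6 (median 30.6) to 61.8 in day 4 control and from 11.97 (median 21.4) to 50.3 with NTHi. Experiment C was highest in each cultured group and experiment A lowest at day 4, so the NTHi and control ranges overlap, but within each experiment the change was negative, at -0.61, -0.57 and -0.39 in A, B and C. The fitted change with NTHi was -0.50 ± 0.10 (adjusted p = 0.00111), which was not called when experiment was left out of the model. Col5a2 rose from a mean of 1.81 CPM at isolation to 5.75 at airlift and 30.5 in day 4 control, and was 26.6 with NTHi (-0.24 ± 0.11, adjusted p = 0.0965). Its partner chain Col5a1 went from 0.761 to 2.80, 11.8 and 13.1 CPM, and its NTHi change of 0.17 ± 0.13 did not pass the test.

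Col5a3, the third type V chain, was the fibrillar gene with the second largest rise with NTHi. It was 1.56, 1.496 and 1.021 CPM in isolation A, B and C. It reached 1.19 to 3.89 CPM (median 2.07) at airlift and 4.89 to 13.7 (median 7.77) in day 4 control. With NTHi it was 14.1 to 34.4 CPM (median 17.4), above every control library. The change was 1.44 ± 0.12 (2.72-fold, adjusted p = 1.43e-07), and it was 1.44, 1.33 and 1.49 in experiments A, B and C. Among the 3 type V chains, per kilobase, Col5a3 made up 17.3% of the level in day 4 control (15.7% to 18.6%) and 38.7% with NTHi (36.7% to 41.1%). It had been 37.8% at isolation, where the summed type V level was low, and 26.1% at airlift.

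Col24a1, the gene of a minor fibrillar chain known from bone and cornea, had no counts in the 3 isolation libraries. Its level was 0 to 0.0999 CPM at airlift (median 0.0556) and 0.103 to 0.425 in day 4 control (median 0.299). With NTHi it was 0.767 to 4.67 CPM, with a median of 3.16. The lowest NTHi library was C3, 1 of the libraries that stood apart, and the other 6 were at 2.91 or more. The groups did not overlap, and the change was 3.34 ± 0.35 (10.1-fold, adjusted p = 2.42e-06), the largest log2 change among the collagen genes tested with NTHi. Control libraries held 4 to 17 counts and NTHi libraries at least 30, so the filter kept the gene only through the NTHi group. Its adjusted p is to be read with that limit. The call was also made with no filter. Against the limit that a count of 0 allows over the isolation group (3 counts, 0.0348 CPM), the airlift mean was at least 1.73-fold higher and the day 4 control mean at least 8.61-fold higher. This limit covers counting error at isolation only and takes each count as a separate read. Most counts below 20 were even, and if each read entered as 2 counts, the fold limits would be lower. The airlift mean itself rests on 14 counts. Even with NTHi, the level per kilobase was 0.427 CPM against 28.8 for Col1a1, and Col24a1 made up 0.886% of the fibrillar level.

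**Figure D3:**
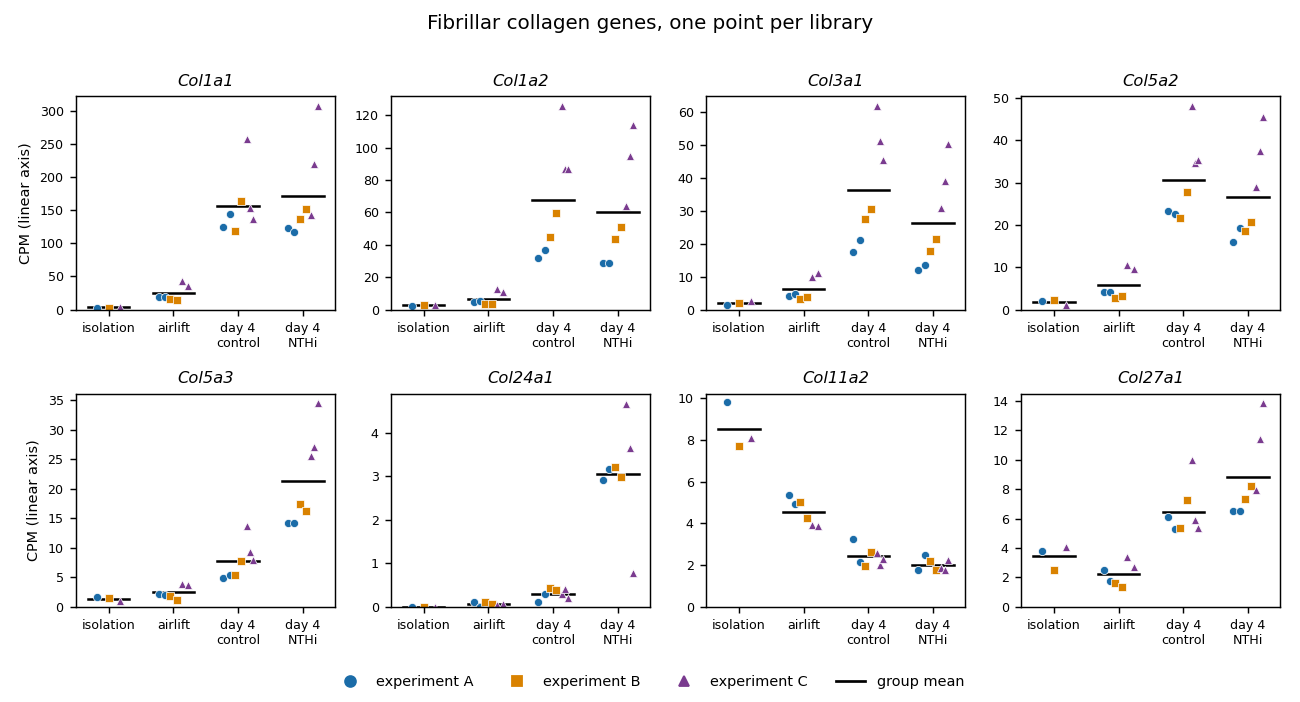
CPM (vertical axes, linear, starting at 0) of 8 fibrillar collagen genes in each library by group; shape and colour give the experiment and bars the group mean. Col5a3 and Col24a1 lie higher in all 7 NTHi libraries than in any control, Col1a1, Col1a2, Col3a1 and Col5a2 overlap between the treatments, and Col11a2 is highest at isolation.

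The remaining fibrillar genes differed among themselves. Col11a2, a chain of the cartilage type XI collagen, went the other way from its class: 9.82, 7.72 and 8.10 CPM in isolation A, B and C, 3.86 to 5.35 at airlift and 1.95 to 3.24 in day 4 control. It fell by 0.92 ± 0.14 to airlift (adjusted p = 7.55e-06) and by 0.92 ± 0.12 after airlift (2.59e-06), with no overlap between the stages. Its NTHi change of -0.26 ± 0.13 was not called (adjusted p = 0.148). The other type XI chain, Col11a1, was 0.527 CPM at isolation and 0.499 at airlift and rose to 3.72 in day 4 control (2.91 ± 0.25, adjusted p = 1.44e-08). Col27a1, another minor fibrillar chain, fell from 3.45 to 2.22 CPM at airlift and rose to 6.47 in day 4 control. With NTHi its mean was 8.83 CPM (0.42 ± 0.15, adjusted p = 0.0418), a call lost without any of the experiments. Col2a1, the cartilage collagen, had means of 1.46, 4.66, 3.88 and 2.43 CPM over the 4 groups. It fell with NTHi by 0.63 ± 0.19 (adjusted p = 0.0173), but not past the threshold without experiment A or C or with no experiment term. That change was -0.78, -0.05 and -0.83 in experiments A, B and C.

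Fibrillar collagens are typical products of fibroblasts, and selection for EpCAM is meant to leave such cells out. The 18 mesenchymal markers examined, with no collagen among them, summed to 34.2 to 55.4 CPM at isolation, 17.7 to 34.9 at airlift, 51.6 to 94.6 in day 4 control and 46.7 to 85.1 with NTHi. Experiment C held the highest sums in every group, at 69.3 to 94.6 CPM in day 4 control against 51.6 to 63.2 in A and B. It also held the highest Col1a2 and Col3a1 in each cultured group. From isolation to airlift, where 8 of 11 fibrillar genes rose, 1 of 14 tested markers rose and 7 fell. Among all genes 37.9% were higher and 36.7% lower there. From airlift to day 4 control, 12 of 14 tested markers rose and none fell, against 26.9% higher and 27.7% lower among all genes. With NTHi 2 of 11 rose (Pdgfrb and Dcn) and 6 fell (Pdgfra, Thy1, Myh11, Cspg4, Notch3 and Des), against 20.1% and 20.4%. Pdgfrb, a receptor of pericytes and fibroblasts, was 0.974 to 2.11 CPM in day 4 control and 3.10 to 10.5 with NTHi, with no overlap (1.88 ± 0.16, adjusted p = 2.11e-07). Markers without counts were Tagln at isolation, Higd1b at airlift and in day 4 control, and Tcf21 with NTHi. Another list held 7 mesenchymal transition genes that cultured epithelium may also express. Of its 6 tested genes, 4 rose and 2 fell from airlift to day 4 control, and 0 rose and 3 fell with NTHi. The shares of all genes are those given above. In bulk RNA, more cells of a type and more RNA per cell cannot be told apart, and the part of mesenchymal cells in the fibrillar levels was not tested.

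Col4a1 and Col4a2 had the highest levels per kilobase of the collagen genes in the cultured groups, at 80.6 and 69.9 CPM in day 4 control, whereas Col6a1 led at isolation with 43.6. Col4a1 was 232, 201 and 153 CPM in isolation A, B and C. Its lowest, median and highest values were 308, 320 and 359 CPM at airlift, 465, 513 and 641 in day 4 control and 277, 296 and 356 with NTHi. NTHi libraries all lay below the controls and across the airlift range. Col4a1 rose by 0.74 ± 0.11 to airlift (adjusted p = 8.83e-06) and by 0.68 ± 0.09 to day 4 control (2.43e-06), and fell by 0.81 ± 0.07 with NTHi (2.00e-07). Col4a2, its partner in the trimer, was 290, 231 and 178 CPM in isolation A, B and C. It ranged from 254 to 320 at airlift, from 389 to 540 in day 4 control and from 234 to 292 with NTHi. Its change to airlift was 0.27 ± 0.13 (adjusted p = 0.0633), positive in experiments B and C and -0.08 in A. It rose by 0.66 ± 0.10 to day 4 control and fell by 0.84 ± 0.08 with NTHi (adjusted p = 1.22e-06). The level of Col4a1 per kilobase was 0.823 ± 0.039 (SD, n = 3) of that of Col4a2 at isolation and 1.14 ± 0.04, 1.16 ± 0.06 and 1.18 ± 0.04 in the cultured groups.

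Col4a3 and Col4a4, which lie beside each other and enter the same trimer, rose most after airlift among the type IV genes. Col4a3 was 49.6, 38.7 and 32.3 CPM in isolation A, B and C. Its lowest, median and highest values were 45.6, 54.3 and 70.0 CPM at airlift, 144, 165 and 239 in day 4 control and 65.9, 79.4 and 106 with NTHi. The day 4 control libraries stood above all others. Col4a3 rose by 1.63 ± 0.13 from airlift to day 4 control (adjusted p = 7.53e-09) and fell by 1.11 ± 0.12 with NTHi (2.16-fold, 3.27e-06), with -1.07, -1.19 and -1.09 in experiments A, B and C. Its smaller rise to airlift, 0.48 ± 0.17 (adjusted p = 0.0156), was lost without experiment B or C. Col4a4 was 44.6, 39.1 and 31.2 CPM in isolation A, B and C, and its group medians were 67.1, 170 and 88.6 CPM at airlift, in day 4 control and with NTHi. It rose by 0.92 ± 0.16 to airlift and by 1.21 ± 0.12 to day 4 control, and fell by 0.99 ± 0.12 with NTHi (adjusted p = 7.09e-06), without overlap in any of the 3 comparisons. The 5 alveolar type 1 markers examined (Ager, Aqp5, Hopx, Pdpn and Rtkn2) moved beside these genes in the later steps. All 5 rose from airlift to day 4 control (median log2 change 1.31), against 26.9% higher and 27.7% lower among all genes. With NTHi 4 fell and Pdpn rose (median -1.64), against 20.4% lower and 20.1% higher among all genes. Their summed level was 1530 to 1817 CPM at isolation, 890 to 1307 at airlift, 1951 to 2437 in day 4 control and 920 to 991 with NTHi, and none was at 0. From isolation to airlift, where Col4a3 and Col4a4 rose, 4 of the 5 markers fell and Hopx rose. Among all genes 36.7% were lower and 37.9% higher there. A rise and fall of the summed level was not particular to alveolar type 1 markers. Over airlift, day 4 control and NTHi, median summed levels were 1053, 2928 and 876 CPM for 5 alveolar type 2 markers. They were 13.5, 129 and 48.8 CPM for 4 basal markers and 3098, 9740 and 3595 CPM for 9 macrophage and monocyte markers. Those of 3 club markers fell at both steps, from 21626 to 3684 and 2161 CPM. Counts of genes called differed in part from these sums. From airlift to day 4 control 4 of 5 type 2, 4 of 4 basal, 5 of 9 macrophage and 2 of 3 club markers rose. In the same order 0, 0, 2 and 1 fell. With NTHi 2, 0, 1 and 0 rose, and 2, 3, 6 and 3 fell. The shares of all genes at these steps are those given above. The part of alveolar type 1 cells in the Col4a3 and Col4a4 levels was not tested.

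Col4a5 and Col4a6, neighbours on the X chromosome, had other values with NTHi. Col4a5 was 42.7, 41.3 and 43.9 CPM in isolation A, B and C. Its lowest, median and highest values were 89.7, 94.4 and 116 at airlift, 122, 130 and 179 in day 4 control and 122, 143 and 185 with NTHi. It rose by 1.20 ± 0.12 to airlift and by 0.50 ± 0.09 to day 4 control, and its NTHi change was -0.01 ± 0.11 (adjusted p = 0.961). Col4a6 was 20.7, 26.6 and 29.3 CPM in isolation A, B and C, with medians of 25.3, 34.3 and 43.2 CPM at airlift, in day 4 control and with NTHi. Its change with NTHi was 0.19 ± 0.12 (adjusted p = 0.237), and its ranges of 31.2 to 48.5 and 33.7 to 53.6 CPM overlapped. Per kilobase, Col4a5 and Col4a6 made up 12.7% of the type IV level in day 4 control (12.04% to 13.8%) and 21.4% with NTHi (20.3% to 23.3%). Col4a3 and Col4a4 made up 17.5% (15.9% to 18.7%) and 13.8% (12.3% to 15.3%), and Col4a1 and Col4a2 69.8% and 64.8%. The ratio of Col4a3 to Col4a5 per kilobase was 0.722 at isolation, 0.435 at airlift, 0.951 in day 4 control (0.901 to 1.020) and 0.445 with NTHi (0.406 to 0.496). A difference between the chains in their NTHi change was not tested.

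**Figure D4:**
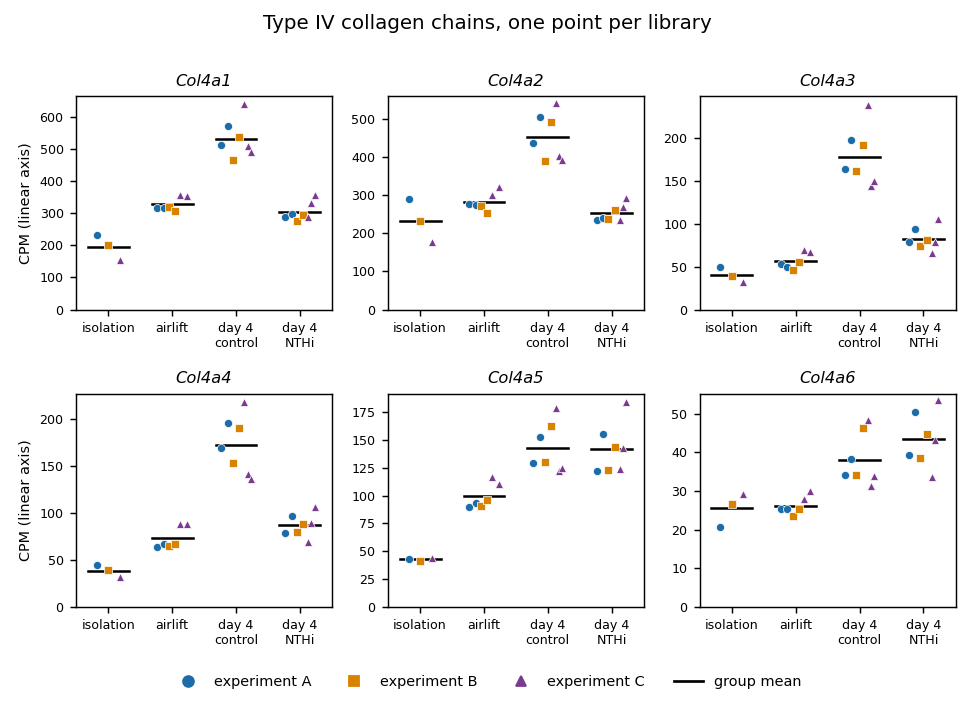
CPM (vertical axes, linear, starting at 0) of the 6 type IV collagen genes in each library by group; shape and colour give the experiment and bars the group mean. For Col4a1, Col4a2, Col4a3 and Col4a4 all 7 NTHi libraries lie below all 7 controls, and for Col4a5 and Col4a6 the 2 groups overlap.

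At the basement membrane zone, Col7a1 makes the anchoring fibrils that tie a basement membrane to the tissue below, and Col15a1 and Col18a1 link basement membranes to their surroundings. Col15a1 was 2.68 to 3.19 CPM at isolation, 3.43 to 4.48 at airlift and 3.52 to 4.82 in day 4 control. With NTHi it was 5.85 to 9.43 CPM, above all controls (0.80 ± 0.08, 1.74-fold, adjusted p = 1.11e-06), and it was the only 1 of these 3 genes to rise with NTHi. Col18a1 rose from a mean of 11.4 CPM at airlift to 32.1 in day 4 control and fell to 22.02 with NTHi (-0.56 ± 0.11, adjusted p = 0.000799). Col7a1 fell from 13.8 to 6.46 CPM at airlift and rose to 32.7 in day 4 control (2.31 ± 0.17, adjusted p = 3.24e-09). It was 27.3 CPM with NTHi, a change of -0.27 ± 0.16 that was not called.

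Type VI collagen, a filament at the border of basement membranes and fibres, is made of Col6a1, Col6a2 and another chain such as Col6a3. Col6a1 was 193, 190 and 152 CPM in isolation A, B and C. It ranged from 14.4 to 27.5 CPM at airlift, from 54.7 to 67.3 in day 4 control and from 33.2 to 50.1 with NTHi, so no groups overlapped. It fell by 3.23 ± 0.14 to airlift (9.37-fold, adjusted p = 2.93e-13), rose by 1.59 ± 0.12 to day 4 control and fell by 0.56 ± 0.07 with NTHi (8.71e-06). Col6a2 followed the same order, with means of 30.5, 6.53, 16.4 and 11.02 CPM over isolation, airlift, day 4 control and NTHi. Col6a3 did not: it was 0.696 to 0.993 CPM at isolation and rose to 1.19 to 4.31 at airlift (1.20 ± 0.30, adjusted p = 0.00152; not called without experiment C). It was 4.20 to 10.8 CPM in day 4 control and 1.61 to 3.94 with NTHi, a fall of 1.27 ± 0.14 (adjusted p = 4.52e-06). The minor chains Col6a4, Col6a5 and Col6a6 stayed at group means below 1 CPM and were not tested in the NTHi comparison. Col6a5 had means of 0.286 CPM in day 4 control and 0.0601 with NTHi, without overlap, from 81 and 16 counts in all. It was called lower with NTHi by DESeq2, with no filter and with all libraries in 1 fit.

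Among the fibril-associated collagens, which decorate fibres, Col12a1 had the highest mean in every group. It was 57.1, 63.3 and 48.0 CPM in isolation A, B and C. Its lowest, median and highest values were 31.99, 34.9 and 41.7 CPM at airlift, 33.7, 42.8 and 53.4 in day 4 control and 14.3, 17.8 and 22.8 with NTHi. The NTHi libraries lay below those of every other group (-1.32 ± 0.13, 2.49-fold, adjusted p = 9.08e-07). Against isolation, the day 4 control change was -0.36 ± 0.13 under TMM (adjusted p = 0.0174) and 0.12 with library totals alone, so its direction depends on the scaling. Col14a1 fell at each step, with means of 2.57, 1.61, 0.657 and 0.244 CPM, and with NTHi by 1.44 ± 0.33 (adjusted p = 0.00259). That change was -1.22, -0.16 and -1.85 in experiments A, B and C, and the call was lost without experiment C. NTHi libraries held 4 to 19 counts of Col14a1 and control libraries 18 to 36, so the filter kept it only through the control group. Col22a1, a collagen of tissue junctions, had no counts at isolation and means of 0.301, 0.835 and 1.39 CPM at airlift, in day 4 control and with NTHi. Its mean was at least 8.66-fold higher at airlift and 24.0-fold higher in day 4 control than the limit for isolation, if each count is a separate read. Col16a1 went from 9.62 CPM at isolation to 2.62, 4.06 and 2.79 (its fall with NTHi was not called without experiment A, B or C), Col20a1 from 10.6 to 7.57, 6.25 and 6.31, and Col9a3 from 1.03 to 0.783, 0.698 and 0.682 CPM.

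The transmembrane collagen Col23a1 had the largest fall of any member from isolation. It was 70.9, 69.4 and 80.0 CPM in isolation A, B and C and 4.69 to 5.64 at airlift. The range in day 4 control was 1.74 to 3.46 CPM and with NTHi 1.61 to 2.87. It fell by 3.85 ± 0.13 to airlift (14.4-fold, adjusted p = 1.77e-14) and by 0.96 ± 0.13 after it (4.57e-06), and its NTHi change of -0.28 ± 0.15 was not called. The short chain genes Col8a1 and Col8a2, known from the membranes under endothelia, moved in opposite directions at airlift. Col8a1 rose from 1.46 to 3.48 CPM and on to 14.01 in day 4 control, and Col8a2 fell from 19.6 to 7.33 and rose to 13.5. With NTHi Col8a1 was 15.6 CPM (not called) and Col8a2 10.41 CPM (-0.41 ± 0.08, adjusted p = 0.000742). Col10a1, the collagen of hypertrophic cartilage, reached 4.38 to 5.09 CPM in day 4 control and 0.805 to 1.38 with NTHi in experiment C, but at most 0.200 CPM in the day 4 libraries of A and B, and it was not tested with NTHi. Col26a1 had means of 0.888, 1.996, 1.01 and 1.38 CPM.

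A test of whether the NTHi change differed between experiments called 0 of the 35 collagen genes in edgeR. It also called 0 of all 16337 genes tested, so it does not show that the change was alike between experiments. By unadjusted p below 0.05, which chance gives in about 1 in 20, it found 2 of the 35, Col14a1 and Col6a1. DESeq2 called 0 of the collagen genes. Of the 35, it gave no adjusted p for Col9a2, Col9a3, Col14a1, Col22a1, Col25a1 and Col26a1.

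Genes that process collagen were described beside the members. Of 20 genes for folding and modifying collagen chains, 16 were higher and 4 lower in day 4 control than at isolation, where 38.8% of all genes tested were higher and 37.7% lower. Crtap, a part of the prolyl 3-hydroxylation complex, rose from 6.28 ± 0.78 CPM (SD, n = 3) to 34.9 ± 1.2 (n = 7; adjusted p = 3.22e-15), and Serpinh1, the collagen chaperone, from 136 ± 38 to 301 ± 37. P3h2, a prolyl 3-hydroxylase that acts on type IV chains, went against them, from 15.8 to 4.98 CPM. With NTHi 5 of the 20 rose and 4 fell, shares near the 20.1% higher and 20.4% lower among all genes tested, so these counts are no result about the list. P4ha2, a subunit of the prolyl 4-hydroxylase that stabilises the helix, rose from 150 to 239 CPM (0.67 ± 0.04, adjusted p = 2.46e-09), Colgalt1, which adds galactose to hydroxylysine, from 422 to 700, and Plod2, a lysyl hydroxylase, from 21.4 to 33.6. P3h2 fell from 4.98 to 2.53 CPM (adjusted p = 1.33e-05), and Plod1, Serpinh1 and Sparc, a collagen-binding secreted protein, were also lower.

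All 7 cross-linking genes were higher in day 4 control than at isolation, with a median log2 change of 4.06 against 0.02 over all genes. Lox, the lysyl oxidase that joins fibrillar collagen molecules, was 2.52 ± 0.62 CPM (n = 3) at isolation, 103 ± 28 (n = 6) at airlift, 184 ± 34 (n = 7) in day 4 control and 336 ± 81 (n = 7) with NTHi. Pxdn, the peroxidasin that links type IV networks, was 4.41, 45.9, 95.8 and 201 CPM in the same groups. With NTHi Lox rose by 0.85 ± 0.11 (adjusted p = 1.29e-05), Pxdn by 1.07 ± 0.12 (6.12e-06) and Loxl2 by 0.66 ± 0.12, whereas Tgm2, a transglutaminase, fell by 0.49 ± 0.08. Thus 3 of 7 rose and 1 fell with NTHi, against 20.1% and 20.4% of all genes. Among 14 genes of export and trimming, 6 rose and 6 fell from isolation to day 4 control. Those shares lie near the 38.8% and 37.7% of all genes. With NTHi 5 of 13 tested rose and 2 fell, against 20.1% and 20.4%. Of the 2, Adamts2, which removes the amino-terminal propeptide of fibrillar chains, went from 3.68 to 1.76 CPM (-1.07 ± 0.12) and Pcolce, which speeds removal of the other propeptide, from 38.4 to 20.9 (-0.88 ± 0.10).

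Partners of type IV collagen in the basement membrane moved in both directions with NTHi, where 4 of 15 tested genes rose and 5 fell, against 20.1% higher and 20.4% lower among all genes. With so few genes, these counts are not far from the background. Hspg2, the proteoglycan perlecan, fell by 0.70 ± 0.15 (adjusted p = 0.00158) and Nid1, which bridges laminin and type IV collagen, by 0.32 ± 0.11. Smoc1 and Lama4 rose by 0.84 ± 0.16 and 0.64 ± 0.14. In none of the 15 did the day 4 groups separate fully. The share of such genes over all genes was not computed, so this is no result about the list. From isolation to day 4 control 12 of 16 rose and 3 fell, against 38.8% and 37.7% of all genes. Of 13 fibril-binding genes, 4 of 12 tested rose and 6 fell over the same interval, and with NTHi 1 of 9 rose (Dcn, decorin, from 7.33 to 16.7 CPM) and 3 fell (Prelp, Bgn and Postn). Dcn is also among the 18 mesenchymal markers.

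Of the collagen receptors, 4 of 10 tested rose with NTHi and 2 fell, against 20.1% and 20.4% of all genes. Itga2, the alpha 2 integrin of epithelial cells, was 1.31 ± 0.20 CPM (n = 3) at isolation and 242 ± 13 (n = 6) at airlift, and rose from 227 ± 34 in day 4 control to 558 ± 61 with NTHi (n = 7 each; 1.31 ± 0.08, adjusted p = 5.91e-09). Mrc2, a receptor that takes up collagen, went from 80.7 to 17.0 CPM (-2.24 ± 0.17) and Lair1, an inhibitory receptor of leukocytes, from 5.16 to 0.797 CPM. Of 9 macrophage and monocyte markers, 6 fell and 1 rose with NTHi, again against 20.4% and 20.1%, their summed level was 5759 to 12439 CPM in day 4 control and 1265 to 4506 with NTHi, none was at 0, and their part in these receptor changes was not tested. Of 17 regulators of collagen transcription, 5 of 16 tested rose with NTHi and 2 fell, against the same 20.1% and 20.4%, which for a list this short is not far from the background. Hif1a, the hypoxia factor, rose from 237 to 541 CPM (1.19 ± 0.09). Tgfb1 (0.20 ± 0.12) and Ccn2 (0.27 ± 0.13) did not pass the test.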

How the data were processed

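RNA-seq libraries were aligned with STAR to GRCm39, and DESeq2 was used, per the submitters' processing notes; the notes give no versions, and the counting tool and its strand setting are not stated. The deposited files hold whole-number raw counts per gene in 3 tables, 1 per experiment. Each has 41098 lines, of which 25 broken lines without a usable gene row were left out (at most 0.0822% of counts), leaving 41073 genes. Between 69.3% and 74.9% of counts below 20 were even. Samples were grouped by their titles.

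Counts were tested with edgeR 4.0.16 in R 4.3.3: filterByExpr with a minimum count of 10, TMM scaling, terms for group and experiment, the quasi-likelihood F-test and Benjamini-Hochberg adjustment over all genes tested, threshold 0.05. The NTHi comparison was fitted on the 14 day 4 libraries and the 3 comparisons of untreated stages together on 16 libraries, so those share libraries. The scripts recovered known changes on simulated data. Those data held no difference between experiments and changed far fewer genes than were called here. The simulation therefore does not show how the tests do under the conditions of this series. The limit that a count of 0 allows was set at 3 counts over a group, which takes each count as a separate read. Depth was 32323375 to 39081663 counts per library. Levels per kilobase use the longest protein-coding transcript of GENCODE vM21 (GRCm38). Promoters are RefSeq's, on GRCm38.p6.

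Members with a group mean of at least 1 CPM were named with values, and of each related list up to 4 genes with the smallest p and any that moved against the others. One gene of the list of regulators is not reported here. Members, classes and lists were chosen with earlier results of these data known. Alternatives were DESeq2 1.42.0 and its size factors, library totals, no filter, no experiment term, all libraries in 1 fit, halved counts, each experiment or replicate left out, a replicate block and, added after seeing the data, both libraries that stood apart left out.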

Additional observations from a re-analysis of the deposited data

Results flagged for a closer look

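Among 102 sets of 6 or 7 libraries examined (a named collagen gene in a group), 2 had a library far from the others, where chance gives about 1 in 20. Both were day 4 control C1, 1 of the libraries that stood apart. Col1a1 was 258 CPM there, against 163 in the next highest and 118 in the lowest control library. Col27a1 was 9.97 CPM, against 7.28 in the next highest and 5.31 in the lowest.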

How the results depend on the processing

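Over the alternatives tried, no called collagen gene was called in the opposite direction. Counts of genes past the threshold moved by over 1.5 times in these cases. Genes lower at airlift than at isolation went from 13 to 8 with library totals alone. Genes higher with NTHi went from 5 to 3 without experiment A, B or C, and were 3 to 5 with single libraries left out. Genes lower in day 4 control than at airlift went from 5 to 3 without experiment A. The cause of these changes was not tested.

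Whether same-numbered libraries pair could not be settled. Between day 4 control and NTHi, correlations of deviations ran from -0.74 to 0.34, and 4 of 7 numbers correlated best with their own. With 2 libraries per group in experiments A and B, deviations mirror each other, so each experiment gave only 1 value (0.19 and 0.33). Both went with their own number. C1, C2 and C3 did not, and experiment C holds both libraries that stood apart. With a replicate block, 4 collagen genes were higher and 13 lower with NTHi, and 26 were higher and 4 lower after airlift.

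Signs turned in 44 cases over 11 genes, 43 of them of changes that had not passed the test. The exception was Col12a1 in day 4 control against isolation, 0.12 with library totals. With library totals alone, airlift against isolation gave 0.29 for Col11a1, 0.22 for Col18a1 and 0.085 for Col9a3, and NTHi gave -0.047 for Col20a1. Without experiment A, airlift against isolation gave 0.061 for Col11a1 and -0.075 for Col4a6, and NTHi gave -0.066 for Col20a1 and 0.079 for Col9a3. Without experiment B, NTHi gave 0.039 for Col4a5, and day 4 control against isolation gave -0.30 for Col26a1. Without experiment C, NTHi gave -0.062 for Col1a1, and day 4 control against airlift gave -0.76 for Col10a1, 0.084 for Col2a1 and 0.34 for Col9a3. Col4a6 at airlift was -0.024 with DESeq2 size factors, -0.020 with DESeq2 and -0.017 with halved counts. Without the 2 libraries that stood apart, Col9a3 with NTHi was 0.12. With single libraries left out, airlift against isolation ran from -0.41 to 0.056 for Col11a1, from -0.47 to 0.011 for Col18a1 and from -0.068 to 0.11 for Col4a6. With NTHi it ran from -0.044 to 0.18 for Col1a1, from -0.053 to 0.062 for Col20a1, from -0.082 to 0.050 for Col4a5 and from -0.14 to 0.077 for Col9a3. Col26a1 in day 4 control against isolation ran from -0.15 to 0.73. Low counts limit the genes under 1 CPM.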
